A study of Mus musculus with 10 samples.

Results

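The 7 genes described here are called germ cell paralogs, though *Tbpl1* and *Taf9b* are also used outside the germline. Each has a close relative in the genome. *Taf4b*, *Taf7l*, *Tbpl1*, *Taf9b*, *Brdt* and *Ctcfl* are paralogs of transcription or chromatin factors, and *Tex19.1* is a germline gene with a neighbouring copy. They were taken by name from a list and are 7 of the 54232 genes in the table of counts, and all 7 passed the filter on low counts that left 20043 genes to test. Their levels came from bulk RNA-seq of testes at postnatal day 4 (P4) from 5 *Dis3* cKO and 5 control mice of strain B6D2F1, 1 library per mouse. The *Dis3* cKO mice were *Dis3* F/-; *Ddx4-Cre*, in which Cre, expressed in male germ cells from before birth, deletes exons 4 to 6 of *Dis3* and shifts the reading frame, and the labels call them Dis3 KO. Controls were siblings of the same litters, called Dis3 WT in the labels, and their allele combination is not given in the sources used here. *Dis3* encodes a ribonuclease of the RNA exosome. The study describes its deletion as specific to male germ cells, which was not tested here, while the genotype gives the other allele as null in every cell. The RNA came from the whole testis, with its Sertoli, Leydig, myoid and other somatic cells. A lower count in such a sample can come from fewer germ cells or from less RNA per germ cell. For a gene also used in somatic cells it can come from those cells too. These sources cannot be told apart.

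RNA polymerase II starts transcription with the help of TFIID, a complex of the TATA-binding protein TBP and its associated factors, the TAFs. In germ cells some of these subunits have relatives that can take their place, and chromatin readers and architectural proteins have such relatives too. In mice, TAF4B is needed to maintain spermatogonial stem cells, TAF7L and the TBP-like factor TBPL1 serve genes of later spermatogenesis, BRDT binds acetylated histones in meiotic and haploid cells, and CTCFL (also called BORIS) binds many of the sites of CTCF. TAF9B is a relative of TAF9 and, like TBPL1, is also made outside the germline. TEX19.1 is a mammalian germ cell and placental protein that binds the ubiquitin ligase UBR2 and restrains retrotransposons, and it is not a part of the basal machinery.

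The promoters of the genes are shown first, because 2 short motifs in them are known from the control of germline genes and because the antisense RNA described at the end is counted directly upstream of the gene starts. RefSeq sequence (GRCm38.p6) was at hand for 5 of the 7 genes, and each line gives the 250 bases before the start, 5′ to 3′ on the gene's strand. Capitals mark CACGTG, the E-box bound by MYC, MAX and MGA family proteins, its reverse complement being the same letters, and TCCCGC or GCGGGA, the core of the E2F6 site on either strand, as well as TATAAA on the gene's strand.
*Taf7l*, chrX:134476491-134476740, minus strand: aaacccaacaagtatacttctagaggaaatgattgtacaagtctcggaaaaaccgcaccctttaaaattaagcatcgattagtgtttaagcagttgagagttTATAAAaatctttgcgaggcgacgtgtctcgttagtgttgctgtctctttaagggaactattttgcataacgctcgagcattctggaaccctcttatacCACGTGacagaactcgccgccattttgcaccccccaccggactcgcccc
*Tbpl1*, chr10:22731448-22731697, minus strand: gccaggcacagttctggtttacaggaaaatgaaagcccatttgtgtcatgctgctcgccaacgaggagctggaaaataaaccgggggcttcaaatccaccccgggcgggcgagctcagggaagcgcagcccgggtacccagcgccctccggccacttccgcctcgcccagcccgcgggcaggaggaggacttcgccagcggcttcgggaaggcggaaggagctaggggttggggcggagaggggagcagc
*Taf9b*, chrX:106221159-106221408, minus strand: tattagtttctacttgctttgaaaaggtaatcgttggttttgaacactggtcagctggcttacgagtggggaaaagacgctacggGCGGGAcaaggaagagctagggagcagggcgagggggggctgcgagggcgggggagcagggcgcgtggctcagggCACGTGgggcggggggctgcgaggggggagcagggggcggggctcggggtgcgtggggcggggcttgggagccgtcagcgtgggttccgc
*Brdt*, chr5:107330944-107331193, plus strand: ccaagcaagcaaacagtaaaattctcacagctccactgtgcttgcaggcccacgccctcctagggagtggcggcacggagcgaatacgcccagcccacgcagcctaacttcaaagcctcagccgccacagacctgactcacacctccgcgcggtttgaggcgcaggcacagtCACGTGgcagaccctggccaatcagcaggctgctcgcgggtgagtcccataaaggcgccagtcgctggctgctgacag
*Tex19.1*, chr11:121145893-121146142, plus strand: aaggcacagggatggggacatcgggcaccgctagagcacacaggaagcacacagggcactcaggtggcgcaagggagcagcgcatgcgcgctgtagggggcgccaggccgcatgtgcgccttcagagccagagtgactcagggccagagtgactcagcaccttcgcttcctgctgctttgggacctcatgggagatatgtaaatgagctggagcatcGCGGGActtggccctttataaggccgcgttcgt
The E-box letters began at position -49 from the start in *Taf7l*, at -90 in *Taf9b* and at -78 in *Brdt*, and 6.02% of all 32851 promoter windows of this length held them. The E2F6 core was found at -165 in *Taf9b* and at -33 in *Tex19.1*, against 16.9% of all windows. TATAAA stood at -148 in *Taf7l*, far from the usual place of a TATA box, and in 7.59% of all windows. A second RefSeq start of *Taf9b* held none of the 3 motifs, nor did the window of *Tbpl1*, whose RefSeq start lies 491 bases from the start in the table of counts. The windows held between 14 and 20 CpG at the starts shown, against a median of 6 over all windows. The E-box and E2F6 letters each hold a CpG, and the shares over all windows were not matched for CpG count. These matches describe the letters only, and binding was not measured.

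The libraries held 28538849 to 37739906 gene counts in *Dis3* cKO and 35391042 to 41104912 in control testes. *Dis3* itself had 1362 to 1709 normalized counts in *Dis3* cKO and 4115 to 5161 in control testes (log2 fold change -1.62), so every library matched its label. Normalized counts here are counts scaled to the mean library size after TMM, the trimmed mean correction of edgeR. Replicates 1 to 3 of both groups deviated together and apart from replicates 4 and 5: across 14753 genes, the deviations of a *Dis3* cKO and a control library from their group means correlated with a mean r of 0.23 within these clusters and of -0.24 between them. Removing the group means makes these values offset each other, so the negative one adds no separate observation. The clusters were seen in these same data. The labels give no batch, and the values within each cluster are given below. Summed over 8 germ cell markers, the libraries held 354 to 463 counts scaled to library size (CPM) in *Dis3* cKO and 502 to 617 CPM in control testes, with 3 of the 8 called lower and a median log2 fold change of -0.44. Called were *Dazl* (log2 fold change -0.67, edgeR adjusted p = 0.00292), *Tdrd9* (-0.47, 0.0161) and *Mov10l1* (-0.47, 0.0156). *Ddx4* (-0.26, 0.323), *Sall4* (-0.08, 0.776), *Lin28a* (-0.37, 0.229), *Dnd1* (-0.67, 0.0663) and *Tdrd1* (-0.40, 0.0737) did not pass. *Dazl*, the most abundant of them, averaged 5266.5 and 8398.1 normalized counts in *Dis3* cKO and control testes. Of 6 markers of differentiating spermatogonia 5 were lower (62 to 66 CPM in *Dis3* cKO, 86 to 104 CPM in control), and of 8 markers of undifferentiated spermatogonia none passed edgeR's test, with 1 lower at an unadjusted p under 0.05. Summed Sertoli markers overlapped, at 3559 to 5084 CPM in *Dis3* cKO and 3619 to 4447 CPM in control, with none of 8 called by edgeR and 2 higher at an unadjusted p under 0.05. Among markers of other somatic cells, *Myh11* (1 of 4 myoid genes; log2 fold change 0.52, edgeR adjusted p = 0.0265) and *Cdh5* (1 of 4 endothelial genes; 0.31, 0.0389) were higher, and *Cyp17a1* (1 of 6 Leydig genes; -0.40, 0.0271) was lower. The summed levels of these lists overlapped, at 1648 to 2076 CPM in *Dis3* cKO and 1264 to 1991 CPM in control for the myoid, 430 to 570 and 401 to 476 CPM for the endothelial and 460 to 672 and 525 to 705 CPM for the Leydig genes (*Dis3* cKO, then control). Of 4 stromal genes none was called by edgeR and 2 were higher at an unadjusted p under 0.05 (5153 to 10147 CPM in *Dis3* cKO, 4344 to 7133 CPM in control). None of the listed germ cell, spermatogonial, Sertoli, myoid, endothelial, Leydig or stromal markers was at 0 in every library. The part of these differences in the results below was not tested.

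All 7 paralogs were lower in *Dis3* cKO testes, each with an adjusted p under 0.05 in edgeR's quasi-likelihood test. Of all genes tested 3.48% were called lower and 4.42% higher. In 6 of the 7, *Taf7l* being the exception, every *Dis3* cKO library was below every control library, which held for 4.31% of all genes tested. All 7 genes were chosen with earlier results of these data known. *Taf4b*, *Taf7l*, *Brdt* and *Tex19.1* also stand among genes that the study chose on these same samples. The calls and their comparison with all genes are thus not independent evidence of the direction. The fold changes were all under 2-fold at their estimates, with log2 values between -0.26 for *Tbpl1* and -0.96 for *Ctcfl* and a median of -0.60.

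**Figure D1:**
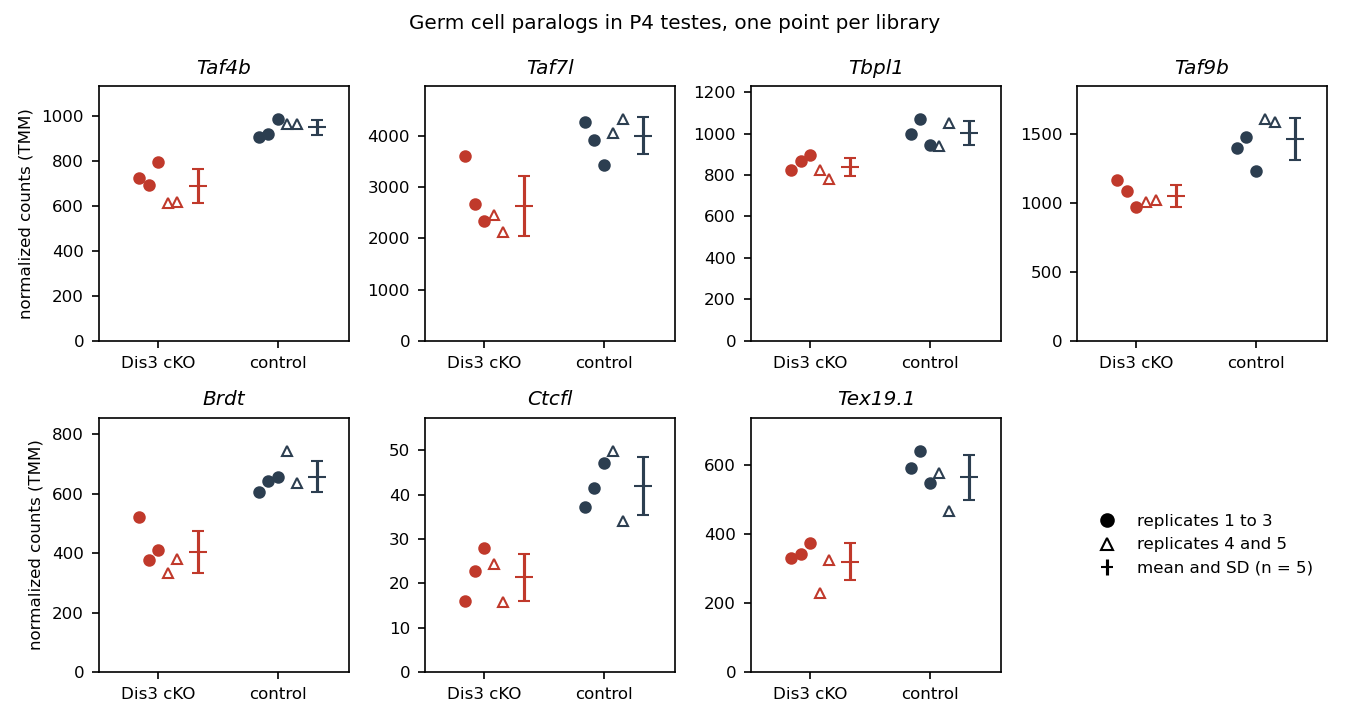
Normalized counts of the 7 paralogs in each library, *Dis3* cKO on the left and control on the right of each panel. Circles are replicates 1 to 3, triangles replicates 4 and 5, and the bar gives the mean and SD (n = 5). The groups are apart in every panel but that of *Taf7l*, where *Dis3* cKO replicate 1 at 3619 lies above control replicate 3 at 3431.

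Among the TFIID paralogs, *Taf4b* (chr18:14783245-14900359, GRCm38, plus strand) had 725, 693, 795, 615 and 617 normalized counts in *Dis3* cKO testes (replicates 1 to 5), against 910, 921, 987, 967 and 966 in control testes. The control values lay within a narrow band (950 ± 33, SD, n = 5), and the *Dis3* cKO values were lower and more spread (689 ± 76, SD, n = 5). This gave a log2 fold change of -0.46 ± 0.08 (SE), with an adjusted p of 0.0058 in edgeR's test.

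*Taf7l* (chrX:134460118-134476490, minus strand) was the most abundant of the 7 genes. It had 3619, 2681, 2338, 2450 and 2116 normalized counts in *Dis3* cKO testes and 4276, 3924, 3431, 4065 and 4327 in control testes. *Dis3* cKO replicate 1 stood above the other 4 of its group and reached into the control range. The log2 fold change was -0.60 ± 0.12 (SE; edgeR, adjusted p = 0.0099), and it was -0.74 without that library. In replicates 1 to 3 alone it was -0.43 and did not pass (edgeR, adjusted p = 0.0744), and in replicates 4 and 5 alone it was -0.87.

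*Tbpl1* (chr10:22703879-22731938, minus strand), which in mice is required for the shaping of spermatids, changed least. It had 822, 866, 899, 826 and 781 normalized counts in *Dis3* cKO testes and 997, 1069, 946, 942 and 1052 in control testes. The groups did not overlap, though the highest *Dis3* cKO and the lowest control library were close. The difference was small, at a log2 fold change of -0.26 ± 0.07 (SE), with an adjusted p of 0.0467 in edgeR's test. The call rested on a small margin: the adjusted p ranged from 0.0470 to 0.120 when single libraries were left out and passed in edgeR only without control replicate 3.

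*Taf9b* (chrX:106206883-106221158, minus strand) had 1168, 1086, 974, 1010 and 1019 normalized counts in *Dis3* cKO testes and 1402, 1481, 1235, 1608 and 1588 in control testes. All *Dis3* cKO libraries were below the lowest control library. Its log2 fold change was -0.48 ± 0.08 (SE; edgeR, adjusted p = 0.00504), close in size to that of *Taf4b*.

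Of the chromatin factors, *Brdt* (chr5:107331159-107387058, plus strand) had 523, 379, 410, 335 and 380 normalized counts in *Dis3* cKO testes and 606, 645, 658, 745 and 637 in control testes. *Dis3* cKO replicate 1 was again the highest of its group but stayed below all controls. The log2 fold change was -0.70 ± 0.12 (SE; edgeR, adjusted p = 0.00342). *Ctcfl* (chr2:173093609-173119525, minus strand) was scarce, with 16, 22.8, 28.0, 24.4 and 15.9 normalized counts in *Dis3* cKO testes and 37.3, 41.5, 47.0, 49.8 and 34 in control testes. These values rest on 13 to 25 reads per *Dis3* cKO library and 37 to 56 per control library. Its log2 fold change of -0.96 ± 0.25 (SE; edgeR, adjusted p = 0.0317) was the largest estimate with the largest error. The call of *Ctcfl* was lost without any 1 of 7 libraries (*Dis3* cKO replicates 1, 2 and 5 and control replicates 1 to 4), with an edgeR adjusted p of up to 0.0776, while the fold change stayed between -1.08 and -0.87.

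*Tex19.1* (chr11:121146143-121148319, plus strand) had 330, 343, 375, 229 and 325 normalized counts in *Dis3* cKO testes and 590, 641, 547, 576 and 467 in control testes. The lowest value of all was that of *Dis3* cKO replicate 4, and the groups were apart. On the log2 scale the fold change was -0.82 ± 0.13 (SE), and its adjusted p of 0.00292 in edgeR's test was the lowest of the 7.

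Within the clusters of libraries all 7 genes had negative log2 fold changes in both, from -0.90 to -0.22 in replicates 1 to 3 and from -1.04 to -0.30 in replicates 4 and 5. The estimate was further from 0 in replicates 4 and 5 for each of the 7. No difference between the clusters passed edgeR's interaction test after adjustment (adjusted p between 0.236 and 0.932). In that test *Taf7l* (0.0286), *Taf4b* (0.0336), *Taf9b* (0.0337) and *Brdt* (0.0433) had unadjusted p-values under 0.05.

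In reads per kilobase of exon, scaled to library size (RPKM), the paralogs covered a wide range of levels. *Taf7l* stood first with 33.9 ± 7.5 RPKM in *Dis3* cKO and 51.4 ± 4.6 RPKM in control testes (SD, n = 5 each). *Taf9b* averaged 9.60 and 13.4 RPKM in *Dis3* cKO and control testes and *Tbpl1* 7.39 and 8.82 RPKM. *Tex19.1* averaged 4.93 RPKM in *Dis3* cKO and 8.68 RPKM in control testes. Its control libraries overlapped those of *Tbpl1* in level, and its *Dis3* cKO libraries overlapped those of *Taf4b* instead. *Taf4b* averaged 3.86 and 5.32 RPKM, *Brdt* 2.28 and 3.71 RPKM and *Ctcfl* 0.192 and 0.376 RPKM in *Dis3* cKO and control testes, and the libraries of these 3 did not overlap within a group. The order of the mean levels was the same in both groups.

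Each paralog was then set beside a family member that most cells use, or in the case of *Tex19.1* beside its germline copy *Tex19.2*, since a ratio within a library does not depend on its size. Of the 8 counterparts reported here none passed edgeR's test or that of DESeq2, with 1 (*Taf4*) higher at an unadjusted p under 0.05 in edgeR. *Taf4* (log2 fold change 0.19, edgeR adjusted p = 0.101), *Taf7* (-0.11, 0.480), *Tbp* (-0.14, 0.243), *Brd2* (0.05, 0.641), *Brd3* (0.11, 0.353) and *Ctcf* (0.05, 0.711) did not pass. Nor did the scarce *Taf9* (-0.75 ± 0.40, SE; 0.280) and *Tex19.2* (-0.45 ± 0.25, SE; 0.299), whose estimates were as negative as those of several paralogs and had larger errors. The signs of *Brd2* and *Ctcf* turned without TMM factors, that of *Taf7* in replicates 1 to 3, and those of *Brd3* and *Ctcf* in replicates 4 and 5. In replicates 4 and 5 alone, *Taf7* (-0.37, 3.53e-04), *Tbp* (-0.26, 0.0144) and *Tex19.2* (-1.27, 9.12e-05) passed edgeR's test as lower (log2 fold change and adjusted p).

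**Figure D2:**
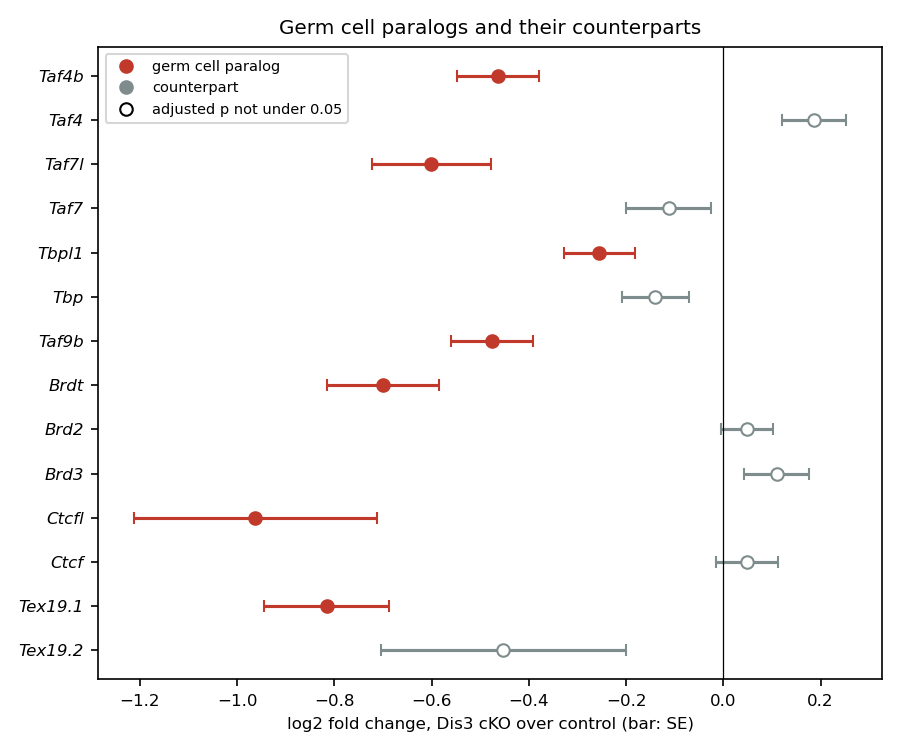
Log2 fold changes of the 7 paralogs (red) and their counterparts (grey), *Dis3* cKO over control, with the SE as bars, and open symbols where the adjusted p was not under 0.05. Every paralog lies left of 0 with a filled symbol, and the symbols of the 7 counterparts shown are open.

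*Taf4b* made up 30.4% to 38.1% of the summed counts per kilobase of *Taf4b* and *Taf4* in *Dis3* cKO testes and 43.2% to 46.8% in control testes. The log2 ratio differed by -0.66, and no library overlapped (exact permutation test over libraries, two-sided, p = 0.00794, the smallest that 5 against 5 libraries can give). *Taf7l* made up 45.8% to 53.9% of the pair with *Taf7* in *Dis3* cKO and 57.0% to 60.5% in control testes (difference -0.50 on the log2 scale, exact permutation p = 0.00794). Per kilobase of annotated exon, the germ cell form of this pair was thus above its counterpart in every control library, and in *Dis3* cKO testes in 3 of 5.

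*Tbpl1* took 55.5% to 60.9% of its pair with *Tbp* in *Dis3* cKO and 58.6% to 62.3% in control testes. These shares divide by annotated exon length, 13576 bases for *Tbp* and 3271 for *Tbpl1*. In raw reads *Tbp* was above *Tbpl1* in every library (25566 and 9277 reads in all). The shares thus do not show which of the pair is more abundant. The groups overlapped, and the difference of -0.11 on the log2 scale did not pass (exact permutation test, p = 0.119). *Brdt* was a small part of its pairs at this age. It made up 3.86% to 5.95% of the counts per kilobase of *Brdt* and *Brd2*, a BET reader of most cells, in *Dis3* cKO testes and 7.03% to 8.24% in control testes, with a log2 difference of -0.76. Beside *Brd3*, a further such reader, it made up 4.54% to 6.31% in *Dis3* cKO and 8.16% to 9.34% in control testes, with a log2 difference of -0.82. For both ratios the groups were apart (exact permutation test, p = 0.00794 each).

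*Ctcfl* made up 0.350% to 0.565% of the pair with *Ctcf* in *Dis3* cKO testes and 0.735% to 1.01% in control testes. The log2 ratio differed by -1.02 (exact permutation test, p = 0.00794). *Tex19.1* and *Tex19.2*, neighbouring copies of 1 gene that are both germline genes in mice, moved in a less uniform way. *Tex19.1* made up 58.7% to 60.5% of the pair in *Dis3* cKO replicates 1 to 3, 70.8% and 75.4% in *Dis3* cKO replicates 4 and 5, and 65.0% to 72.9% in control testes. The difference of -0.27 on the log2 scale did not pass (exact permutation test, p = 0.270). *Tex19.2* had 251, 263, 267, 103 and 116 normalized counts in *Dis3* cKO and 240, 357, 242, 256 and 275 in control testes, so that its low values were those of *Dis3* cKO replicates 4 and 5. Of the 50-base stretches of *Tex19.1* transcripts 2.61% also occur in *Tex19.2*, so a small share of reads could not be assigned to 1 copy.

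**Figure D3:**
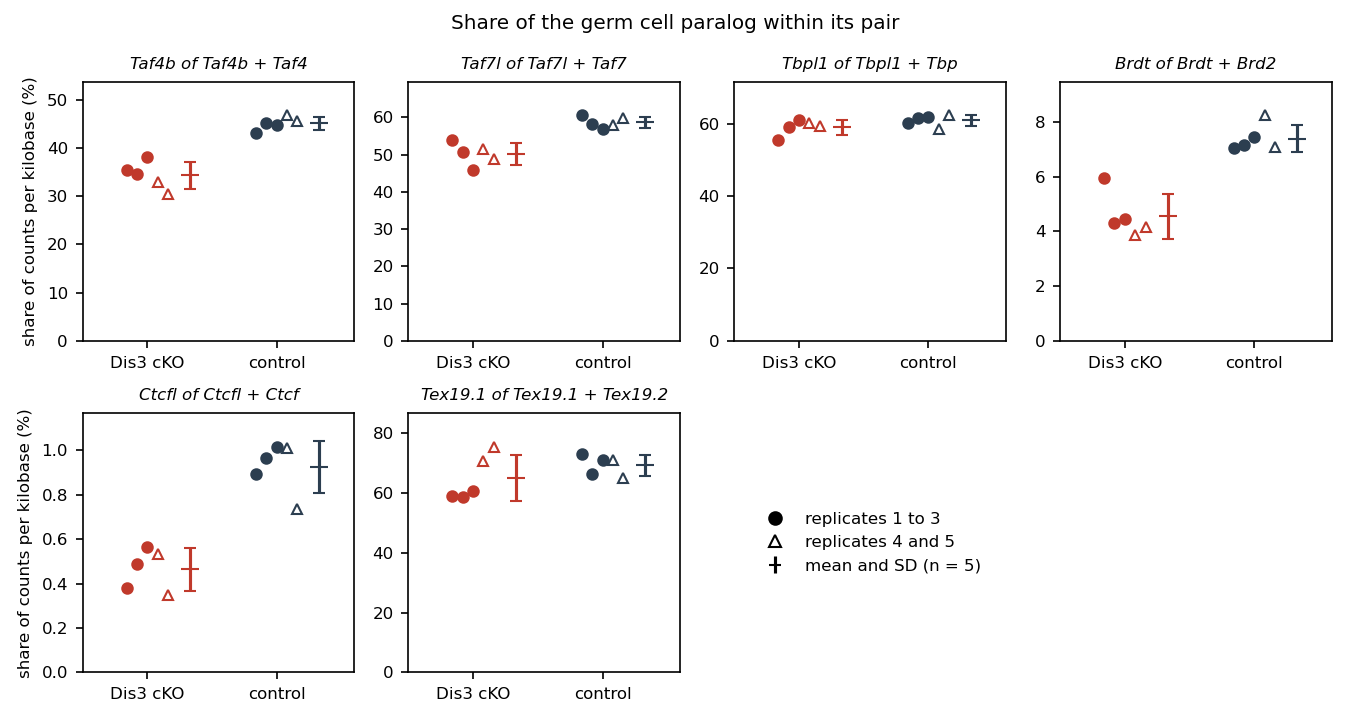
Share of the germ cell paralog in the summed counts per kilobase of a pair, in percent, for each library, with *Dis3* cKO left of control and the mean and SD (n = 5) as a bar. The shares of *Taf4b*, *Taf7l*, *Brdt* (beside *Brd2*) and *Ctcfl* are apart between the groups, and those of *Tbpl1* and *Tex19.1* overlap.

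The ratio of *Taf9b* to *Taf9* cannot be read from these counts. *Taf9* had only 3 to 26 reads per library, and 73.8% of its exon bases overlap exons of *Ak6* on the same strand, where the counting sets reads aside. Its log2 difference was 0.34 (exact permutation test, p = 0.437). None of the 7 paralogs shares exon bases with another gene on its strand. Of the 50-base stretches of the scarce *Ctcfl*, however, 3.16% also occur in transcripts of other genes, the highest share of the 7. In all, 8 ratios to counterparts are given, 5 of them lower at an unadjusted p under 0.05, of which 2 are those of *Brdt*.

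A second set of ratios placed each paralog beside the geometric mean of the 8 germ cell markers *Ddx4*, *Dazl*, *Dnd1*, *Sall4*, *Lin28a*, *Tdrd1*, *Tdrd9* and *Mov10l1*. The 7 log2 differences in this ratio ran from -0.53 to 0.19, and the genes were not tested against each other. A smaller ratio in *Dis3* cKO testes passed the exact permutation test for 3 genes, at unadjusted p-values over 7 ratios. These were *Tex19.1* (log2 difference -0.39, exact permutation p = 0.0238), *Ctcfl* (-0.53, p = 0.0317) and *Brdt* (-0.27, p = 0.0476). For each of the 3 the groups overlapped. The call of *Brdt* was lost without any 1 of 7 libraries, that of *Ctcfl* without any 1 of 4 and that of *Tex19.1* without any 1 of 2. *Taf4b* (-0.03, p = 0.690), *Taf9b* (-0.03, p = 0.810), *Taf7l* (-0.18, p = 0.214) and *Tbpl1* (0.19, p = 0.159) did not pass the exact permutation test. For *Taf4b* and *Taf9b* the sign turned when single libraries were left out.

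**Figure D4:**
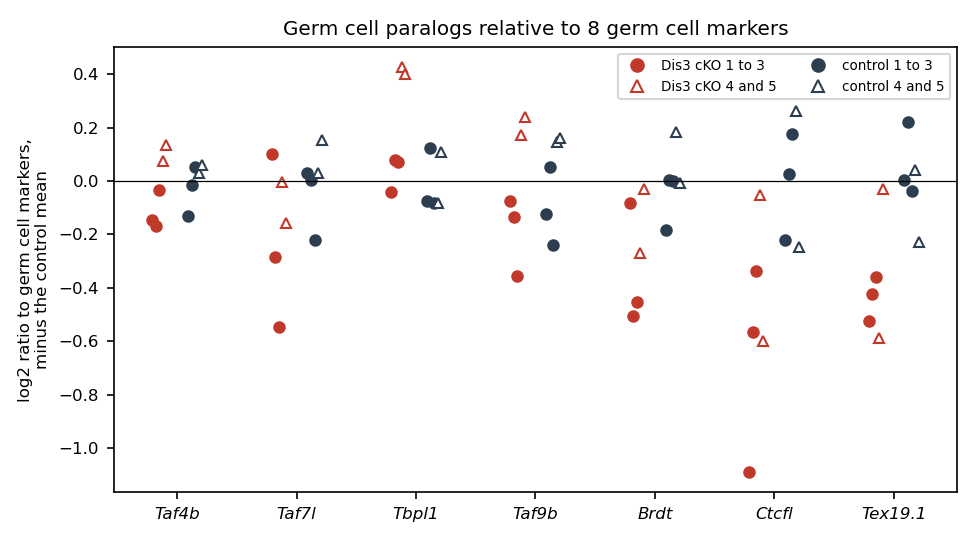
Log2 ratio of each paralog to the geometric mean of 8 germ cell markers in each library, minus the mean of the control libraries, with *Dis3* cKO in red on the left and control in dark blue on the right of each gene. All 5 *Dis3* cKO values of *Tex19.1*, *Ctcfl* and *Brdt* lie below 0, while *Tbpl1* has its 2 highest values in *Dis3* cKO replicates 4 and 5.

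The other genes of the general machinery give the setting for these values. Of 14 core subunits of TFIID none passed edgeR's test, with 1 higher and 2 lower at an unadjusted p under 0.05 and a median log2 fold change of -0.13. Of 17 further general factors 5 were called lower and 1 higher by edgeR, against 3.48% and 4.42% of all genes tested. At an unadjusted p under 0.05 in edgeR's test 9 of them were lower and 1 was higher, and their median was -0.21. *Gtf2h4*, a subunit of TFIIH, was the higher one (log2 fold change 0.52, edgeR adjusted p = 0.00572). The TFIIH subunits *Ccnh* (-0.47, 0.00532) and *Ercc3* (-0.34, 0.0119) and the TFIIF subunit *Gtf2f2* (-0.37, 0.0187) were lower by the same test. The medians of these lists stood nearer to 0 than the -0.60 of the 7 paralogs, all chosen with earlier results of these data known.

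Of 7 further germline paralogs 3 could be tested at P4. *Gtf2a1l*, a TFIIA relative of the testis, had 0 to 22 reads per library and *Tbpl2*, the oocyte form of TBP, 0 to 4, while *Taf7l2* and *Taf1l* had no match in the table. Of the tested genes, *Crem*, *Fhl5* and *Tex19.2*, none was called by edgeR, and none had an unadjusted p under 0.05. Among *Ctcf* and 5 cohesin genes none was called, with 1 higher at an unadjusted p under 0.05. Of 4 germline cohesin genes *Stag3* was lower (log2 fold change -0.41, edgeR adjusted p = 0.0227). *Prss50*, a protease gene that CTCFL activates in mice, had 0, 5, 3, 7 and 4 reads in *Dis3* cKO and 17, 8, 18, 22 and 23 in control libraries and, like *Gal3st1*, fell below the filter. *Ubr2*, which encodes the partner of TEX19.1, did not pass (log2 fold change 0.20, edgeR adjusted p = 0.123). Of 8 spermatid genes, on which TAF7L, TBPL1 and BRDT act later, *Prm1*, *Tnp2* and *Spaca4* had 0 counts in all libraries and only *Spaca1* could be tested (0.24, 0.645).

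Over the 10 libraries, the log2 levels of the 7 genes were positively correlated in all 21 pairs, with Pearson's r between 0.63 (*Taf7l* and *Ctcfl*) and 0.93 (*Taf4b* and *Brdt*). The points share the split into 2 groups. With the group means removed, r fell between -0.40 and 0.72, with the highest value for *Taf7l* and *Taf9b*, followed by *Taf7l* and *Brdt* at 0.61. The genes most like each paralog over the 10 libraries were *Psmc2*, *Trim37* and *Psmd2* for *Taf4b* (r of 0.98, 0.97 and 0.97) and *Lin28b*, *Hook1* and *Phf7* for *Taf7l* (0.99, 0.97 and 0.97). For *Tbpl1* they were *Pdcd5*, *Nop56* and *Rps25* (0.98, 0.96 and 0.96), and for *Taf9b* *Zfp207*, *Rfc3* and *Rbfa* (0.98, 0.98 and 0.97). *Brdt* went with *Rhox1* and the germ cell genes *Meioc* and *Sohlh2* (0.98, 0.98 and 0.97), *Ctcfl* with *Kifc5b*, *Hmgcs1* and *Galnt1* (0.96, 0.95 and 0.95), and *Tex19.1* with *Slc4a5*, *Anapc15* and *Atp6v1b2* (0.98, 0.98 and 0.97). These are descriptions over 10 libraries that also share the division by group.

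The exosome removes short-lived RNAs made upstream of gene starts, called PROMPTs, and the files also hold antisense counts over the 3 kb before the start of 30166 genes. Of the 7 paralogs 6 had such a region and *Ctcfl* had none. No region overlapped an annotated exon on the counted strand. *Taf7l* and *Taf9b* had means of 1.7 and 1.1 reads per library, under the minimum of 3, which left 4 to test. Of these, 3 were higher in *Dis3* cKO testes in edgeR's test, against 13.6% of all 12345 regions tested. All 3 calls were lost (0 called) when the table was scaled to its own library sizes in place of those of the genes, so they hold relative to the gene counts.

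The region of *Tbpl1* (chr10:22731939-22734938), the most covered, had 142, 117, 117, 112 and 108 normalized antisense counts in *Dis3* cKO testes and 68.0, 73.5, 72.2, 25.9 and 25.7 in control testes. All *Dis3* cKO libraries were above all controls, and control replicates 4 and 5 were well below control replicates 1 to 3. The log2 fold change was 1.16 ± 0.26 (SE; edgeR, adjusted p = 2.16e-04), with 0.81 in replicates 1 to 3 and 2.08 in replicates 4 and 5. The mRNA of *Tbpl1* and its upstream antisense RNA thus moved in opposite directions.

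For *Tex19.1* (chr11:121143143-121146142) the counts were 50.6, 14.2, 11.2, 6.65 and 24.9 in *Dis3* cKO testes and 14, 5.66, 1.68, 0.958 and 1.84 in control testes. *Dis3* cKO replicate 1 was far above the others, and the groups overlapped. The log2 fold change of 2.13 ± 0.58 (SE; edgeR, adjusted p = 0.00284) fell to 1.54 and did not pass without that library (edgeR, adjusted p = 0.167). It was 3.02 without control replicate 1, the highest control, and 3.38 in replicates 4 and 5 alone (edgeR, adjusted p = 0.145).

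For *Taf4b* (chr18:14780245-14783244) the counts were 45.7, 42.7, 35.8, 14.4 and 19.3 in *Dis3* cKO testes and 20.5, 15.1, 13.4, 11.5 and 0 in control testes. The groups overlapped, with replicates 4 and 5 the lowest of each. The log2 fold change was 1.37 ± 0.43 (SE; edgeR, adjusted p = 0.0144), and the call was lost without *Dis3* cKO replicate 1 (edgeR, adjusted p = 0.0695), *Dis3* cKO replicate 2 (0.0776) or control replicate 5 (0.0973). *Brdt* had 0 to 20.4 counts in *Dis3* cKO and 0 to 5.66 in control testes and did not pass (log2 fold change 1.26 ± 0.93, SE; edgeR, adjusted p = 0.519).

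**Figure D5:**
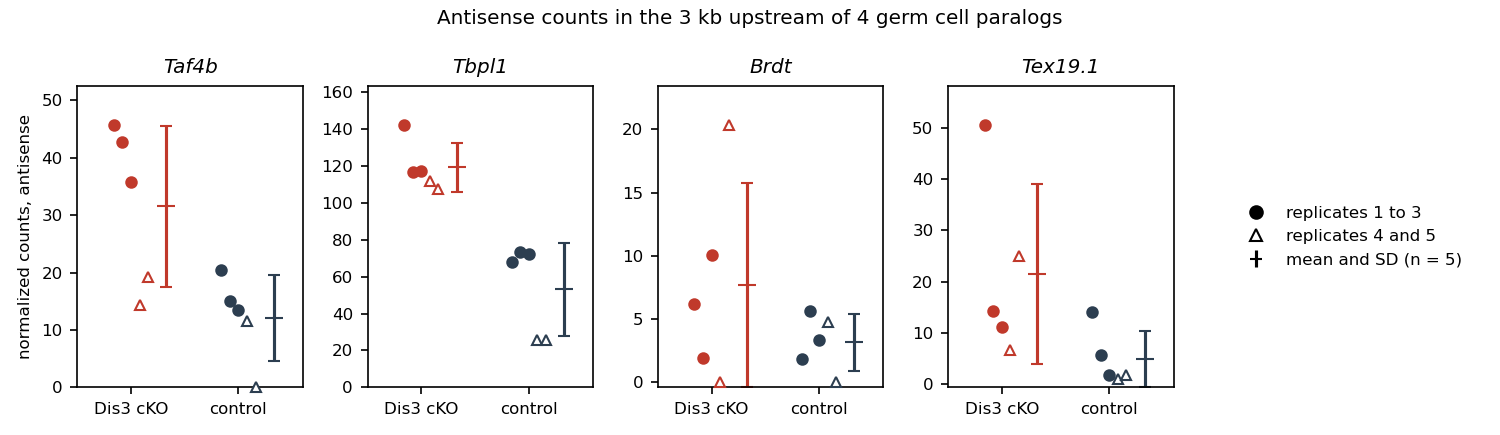
Normalized antisense counts in the 3 kb upstream of the 4 paralogs that could be tested, for each library, *Dis3* cKO left of control, with the mean and SD (n = 5). *Tbpl1* is the one with the groups apart, at 108 to 142 in *Dis3* cKO against 25.7 to 73.5 in control.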

How the data were processed

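The 7 genes and all lists were chosen with earlier results of these data known. RNA of P4 testes was made into strand-specific, ribosomal RNA-depleted libraries, 5 from *Dis3* cKO and 5 from control mice. The authors used cutadapt to trim, HISAT2 to align and featureCounts (1.6.4 in the file headers) to count, as their methods and the submitters' processing notes say. The deposited tables hold the authors' raw counts per gene on its strand and per 3 kb upstream region on the opposite strand. The headers name GENCODE M18, of GRCm38, which is the build of the coordinates given, whereas the methods name GRCm39. Gene IDs were looked up in GENCODE M39 for symbols (50129 of 54232 genes, 99.0% of counts).

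Genes were filtered with filterByExpr (min.count of 10, min.total.count of 15) and tested with edgeR 4.0.16 in R 4.3.3 (TMM, quasi-likelihood, two-sided, Benjamini-Hochberg over all genes tested, threshold 0.05). Upstream regions needed a mean of 3 counts and used the library sizes and TMM factors of the genes. Ratios added 0.5 counts to each gene, divided by exon length, and were compared by exact permutation of libraries. DESeq2 1.42.0, other scalings, no filter, left-out libraries, a replicate block and the clusters of libraries were the alternatives. The scripts were tested on simulated data. Named genes were the 7 paralogs, their counterparts, up to 4 called members of each list by adjusted p, and the 3 most alike genes averaging 50 normalized counts or more. One further counterpart that this rule takes is not reported here. Genes of the lists given as too low to test were named after their values were seen. Promoter sequences came from RefSeq (GRCm38.p6).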

Additional observations from a re-analysis of the deposited data

Results flagged for a closer look

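The upstream antisense count of *Tbpl1* in *Dis3* cKO replicate 1, at 141.9 normalized counts, stood apart from the other 4 libraries of its group (Dixon's test). It was the 1 such value in 38 groups of 5 libraries examined, and chance alone gives about 1 in 20.

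For 2 counterparts the log2 fold change differed between the clusters of libraries in edgeR's interaction test. That of *Taf7* was -0.37 in replicates 4 and 5 and 0.05 in replicates 1 to 3, an interaction of -0.44 (adjusted p = 0.0309). That of *Tex19.2* was -1.27 and -0.10 in these clusters, an interaction of -1.19 (adjusted p = 0.0119). The labels give no batch for these replicates, and the cause was not tested.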

How the results depend on the processing

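All 7 paralogs kept a negative log2 fold change under every alternative run (DESeq2, RLE factors, library sizes only, no filter, single libraries left out, replicate block, cluster term, each cluster alone). The number called lower was 5 to 6 with single libraries left out and 4 in replicates 1 to 3 alone, where *Taf7l*, *Tbpl1* and *Ctcfl* were lost. *Tbpl1* was also lost with RLE factors (adjusted p = 0.0548, edgeR) and with no filter (0.110), and *Ctcfl* with no filter (0.0783) and in replicates 4 and 5 alone (0.146). Library sizes alone shifted the median of all genes by -0.07 on the log2 scale and called 646 genes higher and 1609 lower, against 885 and 698 with TMM. The replicate block called 1388 higher and 1287 lower, the cluster term 1714 and 1645, replicates 4 and 5 alone 2361 and 2360, and single libraries left out gave 516 to 1173 higher and 366 to 806 lower.

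The labels do not state that the replicate numbers pair the samples. Same-numbered deviations correlated at 0.10, 0.08, 0.18, 0.18 and 0.13, against a mean of -0.03 over the other pairs. The best match was the own number for 3 of 5 libraries in each group. Same-numbered libraries always share a cluster, while other pairs also cross clusters, so these values do not settle whether the numbers pair the samples. With the replicate block 7 paralogs were called lower and 3 upstream regions higher.

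Log2 fold changes that turned sign were those of *Taf7* (0.05, replicates 1 to 3 alone), *Brd2* (-0.0191) and *Ctcf* (-0.0187) with library sizes only, and *Brd3* (-0.0309) and *Ctcf* (-0.0337) in replicates 4 and 5 alone. Upstream regions called higher numbered 0 with the library sizes of the upstream table, 1 in replicates 4 and 5 alone and 1 to 3 with single libraries left out. Among ratios to counterparts 5 to 6 were lower with single libraries left out, *Tbpl1* to *Tbp* joining without control replicate 4. Among ratios to germ cell markers 1 to 3 were lower with single libraries left out, and the differences ran from -0.0679 to 0.0073 for *Taf4b* and from -0.0985 to 0.051 for *Taf9b*. The alternatives for upstream regions within clusters and for ratios to germ cell markers were chosen after seeing the data. Ratios within clusters and under the sign-flip test of the block were not tested against the threshold, which their smallest p-values (0.1, 0.333 and 0.0625) cannot reach. Depth limits *Ctcfl*, *Taf9* and the upstream regions, most of which had few reads.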
